A study of Mus musculus with 4 samples.

Results

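Virtual memory (VM) CD8 T cells of the mouse spleen were compared between mice given IL-15C and control mice, with 1 RNA-seq library on each side, so this comparison uses 2 of the 4 libraries of the series. The IL-15C VM library came from spleens of C57BL/6 mice given IL-15 complex, which is IL-15 joined to its receptor alpha chain, 4 times a week. The control VM library is labelled wild type, and the protocol gives PBS as the other treatment. The remaining libraries hold naive CD8 T cells of the same IL-15C and control mouse groups. CD8 cells were enriched on beads and sorted as CD44 high and CD49d negative for VM cells, or as negative for both for naive cells. Each title gives 3 mice, and the labels do not say whether their cells were pooled. The age of the mice, the dose and the length of treatment are likewise not stated in the labels. Because each group is a single library, no difference has a replicate check and no p-value was computed.

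IL-15 is a cytokine that neighbouring cells present on IL-15 receptor alpha to T and NK cells. On those cells it is read by the IL-2 receptor beta chain and the common gamma chain, which signal through JAK1, JAK3 and STAT5. VM cells are CD8 T cells that take on memory features without meeting foreign antigen, depend on IL-15 and carry much IL-2 receptor beta. STAT5 binds the palindrome TTCNNNGAA and drives feedback inhibitors such as Cish and Socs2, while AP-1, formed by Jun and Fos proteins, binds TGANTCA.

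The promoters of Gzmb, Cish and Il7r are printed because these genes stand for the cytotoxic, feedback and receptor changes described next. They are also the only ones with a STAT match among the promoters looked at singly, so they are not typical of those. They run from 250 bases before to 50 after the transcription start in RefSeq GRCm38.p6, 5′ to 3′ on the strand of the gene, and capitals mark matches to those STAT and AP-1 motifs. Gzmb, which encodes granzyme B, lies at chr14:56262285-56262584 on the minus strand, with 1 STAT and 1 AP-1 match. Cish, a SOCS-family inhibitor of cytokine receptors, lies at chr9:107296409-107296708 on the plus strand, with 2 STAT matches. Il7r, the IL-7 receptor alpha chain, lies at chr15:9529827-9530126 on the minus strand, with 1 STAT match.
Gzmb: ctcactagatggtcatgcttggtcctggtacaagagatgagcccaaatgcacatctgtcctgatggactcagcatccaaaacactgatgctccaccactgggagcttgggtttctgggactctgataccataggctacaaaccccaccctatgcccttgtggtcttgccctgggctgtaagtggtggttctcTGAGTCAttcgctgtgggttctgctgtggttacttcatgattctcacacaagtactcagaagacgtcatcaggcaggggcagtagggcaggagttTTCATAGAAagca
Cish: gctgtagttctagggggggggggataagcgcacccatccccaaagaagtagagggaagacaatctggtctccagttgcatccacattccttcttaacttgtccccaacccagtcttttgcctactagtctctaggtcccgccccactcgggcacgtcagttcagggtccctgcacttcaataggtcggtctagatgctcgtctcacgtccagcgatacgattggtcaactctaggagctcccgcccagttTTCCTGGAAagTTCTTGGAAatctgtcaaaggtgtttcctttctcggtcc
Il7r: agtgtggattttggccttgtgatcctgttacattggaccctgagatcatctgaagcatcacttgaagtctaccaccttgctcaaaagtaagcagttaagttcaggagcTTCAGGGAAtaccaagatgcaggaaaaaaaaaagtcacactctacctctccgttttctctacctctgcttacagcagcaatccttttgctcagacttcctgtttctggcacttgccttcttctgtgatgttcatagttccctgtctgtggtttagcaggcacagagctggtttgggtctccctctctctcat

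Both motifs read the same on either strand, so searching one strand covers both, and no match overlapped another in the promoters shown. The STAT motif stood in 6.02% of 914 promoters of genes higher after IL-15C and 5.50% of 1000 promoters of genes lower, against 6.87% of 11595 promoters of the genes compared. The AP-1 motif stood in 4.70% of the promoters of higher genes and 5.30% of those of lower genes, against 4.80% of the genes compared. The windows of Gzma, Il2ra, Jun and Fos hold neither motif by these letters, and nor do those of the STAT5 feedback gene Pim1. A match describes the sequence only.

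The libraries held 45289920 reads assigned to genes in IL-15C VM cells and 43862816 in control VM cells, with 45649628 in IL-15C naive and 48950547 in control naive cells. Levels are given as CPM, which are read counts scaled to library size, after TMM scaling, which adjusts for differences in composition between libraries. A ratio is the log2 of IL-15C over control, so 1 is a 2-fold higher level and −1 a 2-fold lower one, and its 95% interval covers counting error only. Genes count as called if the ratio was 2-fold or more with all of its interval past 2-fold. Cd8a, Cd3e and Cd44 differed by less than 2-fold between the VM libraries, with Cd8a at 1049.9 CPM in IL-15C VM cells, against 1168 CPM in control VM cells, and Cd3e at 528 CPM in IL-15C VM cells, against 539 CPM in control VM cells. Cd44 was at 243 CPM in IL-15C VM cells, against 232 CPM in control VM cells. It was at 17.2 CPM in IL-15C naive and 8.65 CPM in control naive cells, well below either VM library. Itga4, the CD49d chain that the sort selects against, was at 50.9 CPM in IL-15C VM cells, against 351 CPM in control VM cells, and at 289.6 CPM in IL-15C naive and 614 CPM in control naive cells, so its mRNA was present in all 4 sorts.

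Of 12370 genes compared, 1064 (8.6%) were called higher in IL-15C VM cells and 1092 (8.83%) lower, or 2156 genes (17.4%) in all. The median log2 ratio over all genes compared was −0.04. Higher genes included those of cell division, granzymes and the IL-2 receptor alpha chain. Lower genes included immediate early genes, the IL-7 receptor and receptors that guide homing. In bulk libraries such as these, fewer cells of a type and less RNA per cell cannot be told apart, nor can more cells and more RNA per cell.

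Gzmb, a protease that kills target cells, was at 495 CPM in IL-15C VM cells, against 12.1 CPM in control VM cells, a log2 ratio of 5.35 (interval 5.23 to 5.48). Gzma, a second granzyme, was at 180.3 CPM in IL-15C VM cells, against 9.71 CPM in control VM cells, a log2 ratio of 4.21 (interval 4.08 to 4.36). Il2ra, the alpha chain that makes the IL-2 receptor high in affinity, was at 46.7 CPM in IL-15C VM cells, against 4.55 CPM in control VM cells, a log2 ratio of 3.34 (interval 3.15 to 3.57). All 3 were highest in IL-15C VM cells and lowest in control naive cells. Gzmb was at 37.9 CPM in IL-15C naive and 1.49 CPM in control naive cells. Gzma was at 8.05 CPM in IL-15C naive and 0.629 CPM in control naive cells. Il2ra was at 3.34 CPM in IL-15C naive and 1.24 CPM in control naive cells. In GRCm38 these genes lie at chr14:56258836-56262334, chr13:113093824-113100981 and chr2:11642792-11693194 in that order. Il7r, the receptor for the survival cytokine IL-7, was at 211 CPM in IL-15C VM cells, against 645 CPM in control VM cells, a log2 ratio of −1.61 (interval −1.64 to −1.58). It was at 428 CPM in IL-15C naive and 508 CPM in control naive cells, so IL-15C VM cells held the least of the 4. Jun, an AP-1 subunit, was at 22.96 CPM in IL-15C VM cells, against 163 CPM in control VM cells, a log2 ratio of −2.82 (interval −2.92 to −2.73). It was at 79.9 CPM in IL-15C naive and 125 CPM in control naive cells, again with IL-15C VM cells the lowest. Jun lies at chr4:95049036-95052222, where its exons overlap the antisense gene Junos, and whether reads were counted by strand is not known.

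**Figure D1:**
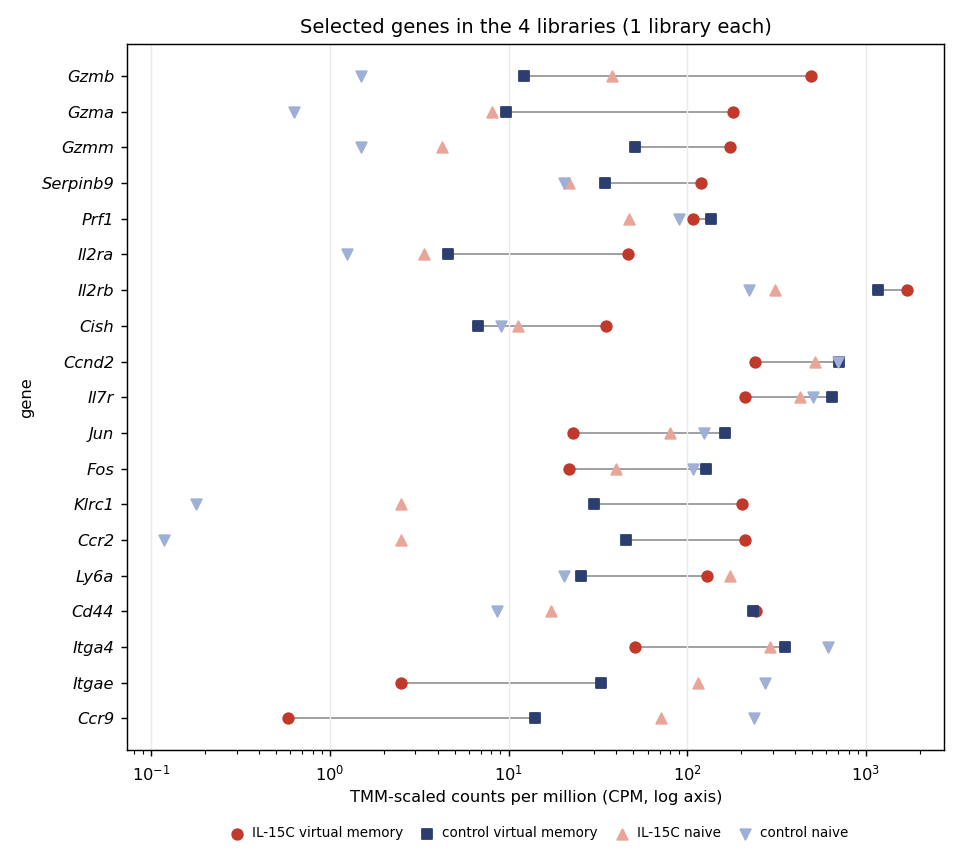
CPM after TMM scaling, on a log axis, of selected genes in the 4 libraries, 1 point a library with no error bar because each group is 1 library. Gzmb, Gzma and Il2ra are highest in IL-15C VM cells, and Il7r and Jun are lowest there.

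Among 22 genes of the IL-2 and IL-15 receptor and its STAT5 feedback, 3 were called higher and 1 lower, and the log2 ratios had a median of 0.08. Over all genes compared, 8.6% were called higher and 8.83% lower, and counts this small lie near those shares. The signalling chains themselves were not called. Il2rb was at 1704 CPM in IL-15C VM cells, against 1175 CPM in control VM cells (log2 ratio 0.54). Il2rg, the common gamma chain, was at 562 CPM in IL-15C VM cells, against 546 CPM in control VM cells (0.04). The 2 higher genes besides Il2ra were feedback inhibitors. Cish was at 34.9 CPM in IL-15C VM cells, against 6.74 CPM in control VM cells (log2 ratio 2.37), and at 11.3 CPM in IL-15C naive and 9.06 CPM in control naive cells. Socs2 was at 4.25 CPM in IL-15C VM cells, against 0.737 CPM in control VM cells (2.46), and at 1.03 CPM in IL-15C naive and 0.0983 CPM in control naive cells. Ccnd2, the D-type cyclin of the list called lower, was at 239 CPM in IL-15C VM cells, against 707 CPM in control VM cells (log2 ratio −1.56). Ccnd3, a related cyclin, was at 330.3 CPM in IL-15C VM cells, against 185 CPM in control VM cells (0.84) and was not called. The survival gene Bcl2, at 203 CPM in IL-15C VM cells, against 399 CPM in control VM cells (−0.97), lay just inside 2-fold. Of 15 genes of the BCL-2 family, which sets the threshold of cell death, 1 was called higher and 1 lower, around a median of −0.44. These counts too lie near the shares over all genes compared. The higher one was the pore-forming Bak1, at 136 CPM in IL-15C VM cells, against 55.4 CPM in control VM cells (1.30). The lower one was the death inducer Bbc3, at 20.6 CPM in IL-15C VM cells, against 48.8 CPM in control VM cells (−1.24).

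Of 20 receptors for other cytokines, 1 was called higher and 3 lower, around a median of −0.34. The shares over all genes compared were 8.6% higher and 8.83% lower, and these counts lie near them. Il12rb2, the signalling chain of the IL-12 receptor, was the higher one, at 40.8 CPM in IL-15C VM cells, against 5.83 CPM in control VM cells (log2 ratio 2.80). The lower ones besides Il7r were Ifngr2 and Tgfbr3. Ifngr2, the signalling chain of the interferon gamma receptor, was at 0.980 CPM in IL-15C VM cells, against 5.62 CPM in control VM cells (−2.47). It was at 27.7 CPM in IL-15C naive and 40.6 CPM in control naive cells, far above both VM libraries. Tgfbr3, a co-receptor for TGF-beta, was at 6.95 CPM in IL-15C VM cells, against 18.9 CPM in control VM cells (−1.44), and it was not called once the median ratio of genes of like length was subtracted (−1.09).

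Of 17 cytotoxic mediators compared, 6 were called higher and none lower, around a median of 0.27. The share called higher among all genes compared was 8.6%. Besides Gzmb and Gzma these were Gzmm, Fasl, Serpinb9 and Serpinb6b. Gzmm, a further granzyme, was at 174 CPM in IL-15C VM cells, against 51.3 CPM in control VM cells (log2 ratio 1.76). Fasl, the death ligand, was at 21.2 CPM in IL-15C VM cells, against 6.70 CPM in control VM cells (1.66). Serpinb9, an inhibitor of granzyme B, was at 119 CPM in IL-15C VM cells, against 34.6 CPM in control VM cells (1.78). The pore former and the effector cytokines were not called. Prf1, or perforin, was at 108 CPM in IL-15C VM cells, against 136 CPM in control VM cells (−0.33), and Ifng at 6.98 CPM in IL-15C VM cells, against 7.10 CPM in control VM cells (−0.02). Per transcript length, in the deposited TPM, Gzmb stood at 564 TPM, Gzma at 353 TPM and Prf1 at 73.1 TPM in IL-15C VM cells. The order differed in control VM cells, where Prf1 at 100.4 TPM was above Gzma at 21.1 TPM and Gzmb at 15.3 TPM.

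All members of the cell division lists were higher. All 30 mitosis genes and all 30 DNA replication genes were called higher, with median log2 ratios of 4.08 and 2.62. Together these 60 genes took 1.61% of the reads of IL-15C VM cells and 0.214% of those of control VM cells, against 0.712% in IL-15C naive and 0.107% in control naive cells. Mki67, a marker of cycling cells, was at 1566 CPM in IL-15C VM cells, against 117 CPM in control VM cells with a log2 ratio of 3.74 (interval 3.70 to 3.78). Ccnb2, a mitotic cyclin, was at 289 CPM in IL-15C VM cells, against 12.3 CPM in control VM cells (4.55). Plk1, a mitotic kinase, was at 220.0 CPM in IL-15C VM cells, against 10.5 CPM in control VM cells (4.38). The 2 VM libraries lay far apart for each of these genes. Rrm2, a subunit of ribonucleotide reductase, was at 470.0 CPM in IL-15C VM cells, against 33.3 CPM in control VM cells (3.82). Mcm5, of the replicative helicase, was at 633 CPM in IL-15C VM cells, against 91.7 CPM in control VM cells (2.79). The smallest ratios of each list were those of Racgap1, of the cytokinesis machinery, at 1.94, and Cdt1, which licenses origins, at 1.73.

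Genes of the cytoskeleton, of S100 proteins and of annexins were also higher as a group, with 11 of 24 called higher, none lower, and a median of 1.07. For this and the next lists, the shares over all genes compared were 8.6% higher and 8.83% lower. Vim, the intermediate filament vimentin, was at 1749 CPM in IL-15C VM cells, against 438 CPM in control VM cells (log2 ratio 2.00). Lgals1, the lectin galectin-1, was at 775 CPM in IL-15C VM cells, against 145 CPM in control VM cells (2.42). S100a6, a calcium-binding protein, was at 284 CPM in IL-15C VM cells, against 40.8 CPM in control VM cells (2.80). In energy metabolism, 8 of 20 glycolysis genes were called higher and 1 lower (median 0.59). Gapdh was at 1238 CPM in IL-15C VM cells, against 408 CPM in control VM cells (1.60). Ldha, which makes lactate, was at 1029.8 CPM in IL-15C VM cells, against 436 CPM in control VM cells (1.24). Ldhb, which encodes the other subunit of that enzyme, was the lower one, at 1.07 CPM in IL-15C VM cells, against 3.50 CPM in control VM cells (−1.67). The glucose transporter Slc2a1, at 52.6 CPM in IL-15C VM cells, against 45.2 CPM in control VM cells, was not called. Of 33 respiratory chain and ATP synthase genes 10 were called higher and none lower (median 0.94), with Cox7a2 highest in ratio at 122 CPM in IL-15C VM cells, against 43.99 CPM in control VM cells (1.47). Of 29 proteasome subunits 5 were called higher and none lower (median 0.89), led by Psmb2 at 139.7 CPM in IL-15C VM cells, against 56.6 CPM in control VM cells (1.30).

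The ratio also ran with transcript length. The genes compared were divided by length into 10 bins of 1237 genes. The median log2 ratio was 0.31 in the shortest bin, of median length 721 bases, and 0.42 in the next, of 1419 bases. It was −0.55 in the longest bin, of 9411 bases. In the shortest bin 12.7% of genes were called higher and 4.28% lower, and in the longest 4.61% were called higher and 21.3% lower. The naive comparison showed the like trend, with 0.40 in the shortest bin and −0.57 in the longest, whereas control VM over control naive cells ran only from 0.06 to −0.09. Across genes, which are not independent replicates, Spearman's rho between length and ratio was −0.32 over 12370 genes. After the median ratio of genes of like length was subtracted, 1014 genes (8.2%) were called higher and 840 (6.79%) lower. The glycolysis list then held 7 higher calls and 1 lower (median 0.79), although Ldha (0.99) was no longer called. The respiratory chain list kept 2 of its higher calls (median 0.68), the proteasome list 1 (0.51) and the cytoskeleton list 9 (0.76). Cox7a2 and Psmb2 were among the calls lost, at adjusted ratios of 1.06 and 0.89. The mitosis and replication lists kept all 60, with medians of 4.19 and 2.71, and Gzmb, Gzma, Il2ra, Il7r and Jun kept ratios of 5.10, 3.79, 3.60, −1.50 and −2.72. What produced the trend was not tested.

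**Figure D2:**
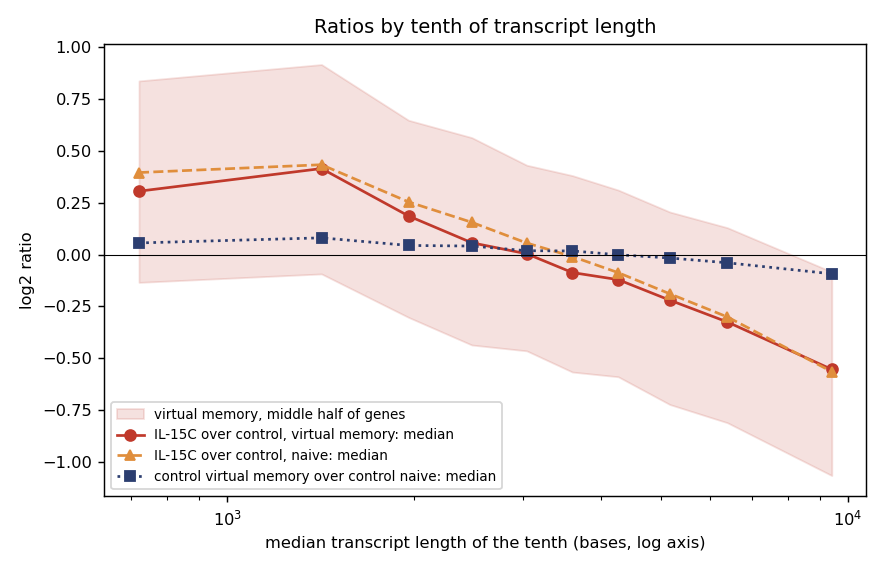
Median log2 ratio (y axis) in 10 bins of genes by transcript length in bases (x axis, log scale) for IL-15C over control VM cells, IL-15C over control naive cells and control VM over control naive cells. Both IL-15C lines fall with length, from 0.31 to −0.55 in VM cells, and the line between the control libraries stays close to 0.

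Of 16 markers of the VM state 3 were called higher in IL-15C VM cells and none lower, and 14 ratios were above 0 (median 0.46). Among all genes compared 8.6% were called higher and 8.83% lower. Klrc1, an inhibitory NK lectin receptor also known as NKG2A, was at 203 CPM in IL-15C VM cells, against 30.1 CPM in control VM cells (log2 ratio 2.75). Ly6a, which encodes Sca-1, was at 129 CPM in IL-15C VM cells, against 25.6 CPM in control VM cells (2.34), and in naive cells at 174 CPM in IL-15C naive and 20.4 CPM in control naive cells. Ccr2, a chemokine receptor of inflamed tissue, was at 211 CPM in IL-15C VM cells, against 45.3 CPM in control VM cells (2.22). The Ly6C genes were not called. Ly6c2 was at 1536 CPM in IL-15C VM cells, against 827 CPM in control VM cells (0.89), and its near-identical copy Ly6c1 at 131 CPM in IL-15C VM cells, against 71.1 CPM in control VM cells (0.89), so how reads were split between them is uncertain. The memory transcription factors also lay inside 2-fold, Eomes at 365 CPM in IL-15C VM cells, against 219 CPM in control VM cells (0.74), and Tbx21 at 145 CPM in IL-15C VM cells, against 92.8 CPM in control VM cells (0.64). Of 13 NK lectin receptors and adaptors 3 were called higher and none lower (median 0.34), namely Klrc1, Klrc3 and Klrb1c. Klrc3, a close relative of Klrc1 that may share reads with it, was at 14.2 CPM in IL-15C VM cells, against 4.96 CPM in control VM cells (1.51). Klrb1c, the antigen NK1.1 in C57BL/6 mice, was at 20.7 CPM in IL-15C VM cells, against 8.28 CPM in control VM cells (1.32).

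Of 16 chemokines and trafficking receptors 2 were called higher and 2 lower (median −0.32), against 8.6% of all genes compared called higher and 8.83% lower. Counts this small lie near those shares, and so do those of the adhesion genes that follow. The higher ones included Ccr2. The lower ones were the dendritic-cell attractant Xcl1, at 14.1 CPM in IL-15C VM cells, against 31.4 CPM in control VM cells (−1.16), and Ccr9. Ccr9, the gut-homing receptor, was at 0.583 CPM in IL-15C VM cells, against 14.1 CPM in control VM cells with a log2 ratio of −4.49 (interval −5.23 to −4.02). Of 20 integrins and adhesion genes 2 were called higher and 2 lower (median 0.09). Itgax, or CD11c, was at 55.6 CPM in IL-15C VM cells, against 21.5 CPM in control VM cells (1.37). Itgam, or CD11b, was at 5.55 CPM in IL-15C VM cells, against 1.90 CPM in control VM cells (1.53). The lower ones were Itga4 (−2.79) and Itgae, the CD103 chain, at 2.50 CPM in IL-15C VM cells, against 32.99 CPM in control VM cells (−3.70). Ccr9 was at 71.7 CPM in IL-15C naive and 235 CPM in control naive cells, and Itgae at 115 CPM in IL-15C naive and 274 CPM in control naive cells, so for both genes control VM cells stood between IL-15C VM cells and the naive libraries. Exons of Ccr9 overlap other genes on both strands, so its counts may hold reads of those.

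Immediate early genes, which are switched on within minutes of stimulation, were lower as a group. Of 28 compared, 18 were called lower and none higher, and 27 ratios were below 0 (median −1.26). The shares among all genes compared in VM cells were 8.83% lower and 8.6% higher. Fos, the partner of Jun in AP-1, was at 21.8 CPM in IL-15C VM cells, against 127 CPM in control VM cells with a log2 ratio of −2.54 (interval −2.65 to −2.44). Junb, a further AP-1 subunit, was at 61.99 CPM in IL-15C VM cells, against 274 CPM in control VM cells (−2.14). Tnfaip3, which restrains NF-kB signalling, was at 34.1 CPM in IL-15C VM cells, against 106 CPM in control VM cells (−1.64). The fall thus reached beyond the AP-1 subunits. Nr4a1, an orphan nuclear receptor induced by the T cell receptor, was at 9.62 CPM in IL-15C VM cells, against 26.4 CPM in control VM cells (−1.46). Cd69, an early activation antigen, was at 37.2 CPM in IL-15C VM cells, against 83.8 CPM in control VM cells (−1.17). The only ratio above 0 was that of Dusp5, a phosphatase of ERK, at 26.2 CPM in IL-15C VM cells, against 16.9 CPM in control VM cells (0.63), which was not called. In naive cells 1 of 28 was called lower (Fos) and 1 higher (Rgs1), against 1.99% lower and 4.95% higher among all genes compared in naive cells, and the median was −0.35.

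Of 26 genes of the naive and quiescent state 7 were called lower and none higher, around a median of −0.63. By comparison, 8.83% of all genes compared were called lower. The largest falls besides Ccr9 were those of Sox4 and Igfbp4. Sox4, a transcription factor, was at 0.373 CPM in IL-15C VM cells, against 7.79 CPM in control VM cells (log2 ratio −4.22). Igfbp4, an IGF-binding protein, was at 5.93 CPM in IL-15C VM cells, against 33.2 CPM in control VM cells (−2.48). Bach2, a repressor that restrains effector differentiation, was at 42.9 CPM in IL-15C VM cells, against 100.0 CPM in control VM cells (−1.22), and its length-adjusted ratio of −0.54 was no longer 2-fold. Tcf7, or TCF-1, was at 1439 CPM in IL-15C VM cells, against 1496 CPM in control VM cells (−0.06) and was not called. Klf2, which controls exit from lymph nodes, was at 211 CPM in IL-15C VM cells, against 326 CPM in control VM cells (−0.63) and was not called either.

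Of 24 effector and memory transcription factors 1 was called higher and 6 lower (median 0.01). The shares among all genes compared were 8.6% higher and 8.83% lower. Bhlhe40, a repressor induced by activation, was the higher one at 28.3 CPM in IL-15C VM cells, against 5.42 CPM in control VM cells (2.37). Tox, known from exhausted T cells, was at 18.9 CPM in IL-15C VM cells, against 58.7 CPM in control VM cells (−1.64). Ikzf2, or Helios, was at 11.6 CPM in IL-15C VM cells, against 54.01 CPM in control VM cells (−2.21). Zbtb20, a zinc finger repressor, was at 3.13 CPM in IL-15C VM cells, against 33.4 CPM in control VM cells (−3.40), and the other lower ones were Rora, Maf and Zeb2, the last at a length-adjusted ratio of −0.72. Of 13 inhibitory receptors 1 was called higher and 5 lower, the lower ones all below 10 CPM in both VM libraries. Pdcd1, or PD-1, was at 1.14 CPM in IL-15C VM cells, against 3.77 CPM in control VM cells (−1.68). Ctla4, which competes with CD28, was at 1.56 CPM in IL-15C VM cells, against 7.63 CPM in control VM cells (−2.25). Entpd1, the ectonucleotidase CD39, was the higher one, at 21.7 CPM in IL-15C VM cells, against 4.55 CPM in control VM cells (2.24). Ikzf2 and Ctla4 are also on the list of CD4 and regulatory T cell markers, of which 4 of 7 were called lower and 1 higher (Il2ra), with a median of −1.50. That list summed to 85.2 CPM in IL-15C VM cells, against 104 CPM in control VM cells. Il2ra supplied 46.7 CPM of the sum in IL-15C VM cells and 4.55 CPM in control VM cells, so the other members together were lower in IL-15C VM cells. The list's defining factor Foxp3 was at 0.350 CPM in IL-15C VM cells, against 2.21 CPM in control VM cells, and the part of such cells in these falls was not tested.

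Several groups held few or no calls. None of 21 T cell receptor signalling genes was called (median 0.02), with ratios between −0.45 for Themis and 0.44 for Zap70. None of 41 cytosolic ribosomal protein genes (median −0.19), 24 ribosome biogenesis genes (0.12), 8 Gimap GTPases (−0.27) or 6 gamma-delta T cell markers (0.00) was called. After the length adjustment the ribosomal protein list held 1 lower call and a median of −0.45. The adjusted medians of the other 3 lists were 0.18, −0.50 and −0.07 in that order, without a call. Over all genes compared 17.4% were called, 8.6% higher and 8.83% lower. At those shares, lists as short as 6 or 8 genes can hold no call, so its absence there says little. Single members were called higher among 10 amino acid and iron carriers (Slc7a5, 1.25), among 17 fatty acid oxidation genes (Etfb, 1.13), among 22 sterol synthesis genes (Ebp, 1.13) and among 21 class I presentation genes (Psmb9, 1.13). After the length adjustment Slc7a5 kept its call, and Etfb (0.71), Ebp (0.99) and Psmb9 (0.71) did not. The medians of these lists, unadjusted, were 0.06, 0.45, 0.31 and 0.21 in that order. Of 48 interferon-induced genes 1 was called higher, Ifi27l2a (1.17), and 5 lower, around a median of −0.15. The call of Ifi27l2a was lost after the length adjustment (1.01). Slfn5, of the Schlafen family, was at 6.51 CPM in IL-15C VM cells, against 72.3 CPM in control VM cells (−3.46). In naive cells 20 of 48 were called higher and none lower, against 4.95% higher among all genes compared there, with a median of 0.90. Ifit3, an antiviral gene of that list, was at 47.7 CPM in IL-15C VM cells, against 38.97 CPM in control VM cells, and at 129.5 CPM in IL-15C naive and 31.6 CPM in control naive cells.

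**Figure D3:**
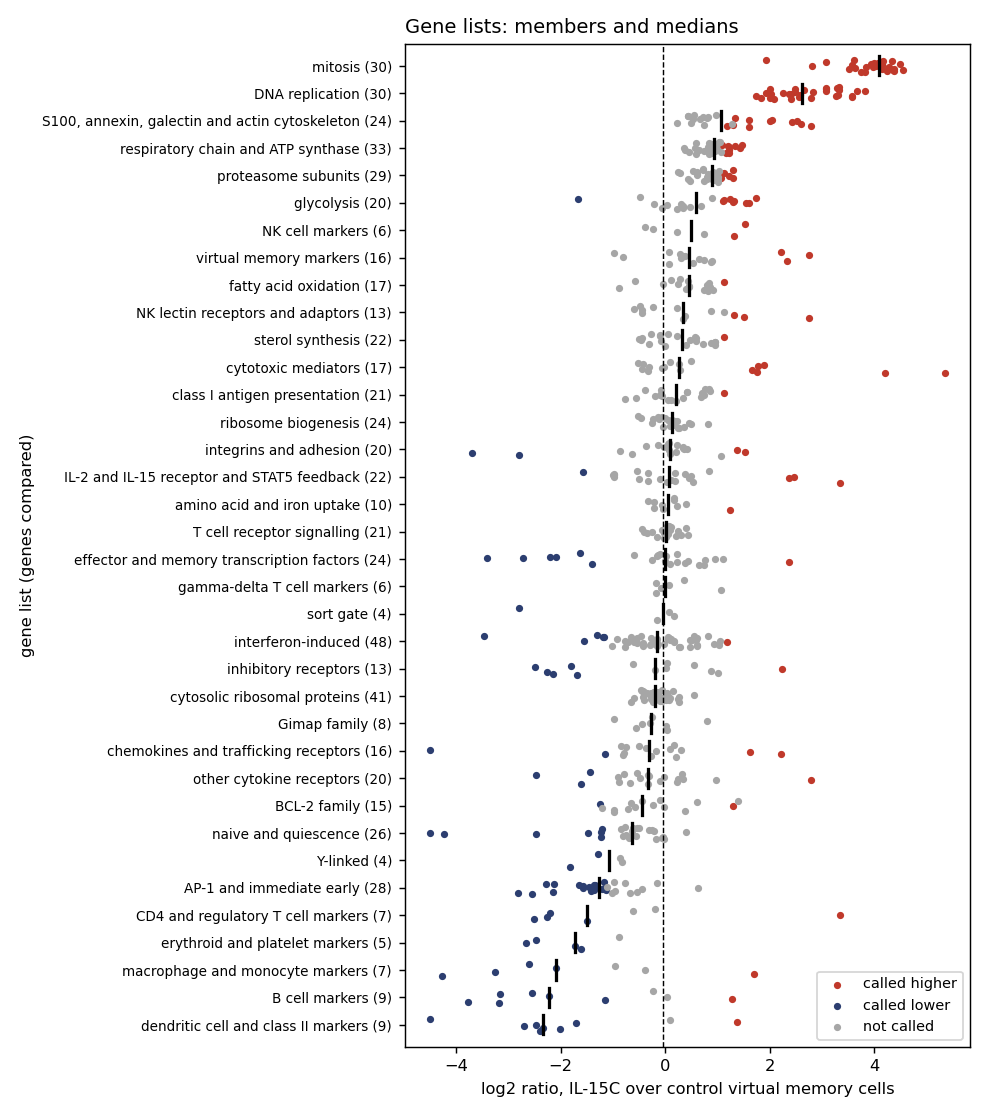
Log2 ratio of IL-15C over control VM cells, without the length adjustment, for the members of each gene list (1 point a gene) with the list median. The mitosis and replication lists lie wholly above 1, the immediate early list lies almost wholly below 0, and T cell receptor signalling and ribosomal protein genes lie near 0.

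Many transcripts typical of other blood cells were lower, while their sum differed little. Over 54 such markers in the table the sum was 1777 CPM in IL-15C VM cells, against 1889 CPM in control VM cells, a log2 ratio of −0.09 (interval −0.10 to −0.07). It was 1337 CPM in IL-15C naive and 1214 CPM in control naive cells. By the deposited TPM, which weigh short transcripts more, the ratio of the VM sums was −0.48. Of the 51 compared, 7 were called higher and 26 lower, with a median of −1.15. Among all genes compared the shares were 8.6% higher and 8.83% lower. Without the markers that a functional list also holds, 43 genes summed to 1206 CPM in IL-15C VM cells, against 1499 CPM in control VM cells, a log2 ratio of −0.31 (interval −0.33 to −0.30). Of the 40 of these compared, 3 were called higher and 23 lower. Ighm alone, the IgM heavy chain, made up 592 CPM of the sum in IL-15C VM and 574 CPM in control VM cells, and it stood at 542 CPM in IL-15C naive and 466 CPM in control naive cells.

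Of 9 B cell markers 6 were called lower and 1 higher (median −2.22). For this and the next lists, the shares over all genes compared were 8.6% higher and 8.83% lower. The B cell receptor chain Cd79a was at 1.12 CPM in IL-15C VM cells, against 15.8 CPM in control VM cells (−3.76). Cd22, a B cell lectin, was the higher one at 85.04 CPM in IL-15C VM cells, against 34.9 CPM in control VM cells (1.28), with 1.01 CPM in IL-15C naive and 0.0590 CPM in control naive cells. Of 9 dendritic cell and class II markers 7 were called lower and 1 (Itgax) higher, with a median of −2.33. The lower ones included Ccr9, which the chemokine and naive lists also hold. Ccr9 stood at 71.7 CPM in IL-15C naive and 235 CPM in control naive cells, so it is not particular to dendritic cells here. Cd74, the class II invariant chain, was at 16.4 CPM in IL-15C VM cells, against 106 CPM in control VM cells (−2.70). Of 7 macrophage and monocyte markers 4 were called lower and 1 higher (median −2.09), and the higher one was the lysosomal gene Cd68. Csf1r, the CSF-1 receptor, was at 0.187 CPM in IL-15C VM cells, against 4.44 CPM in control VM cells (−4.27). Of 5 erythroid and platelet markers 4 were called lower (median −1.72), all under 3 CPM in both VM libraries. Of 6 NK cell markers 2 were called higher and none lower, both shared with the integrin and NK receptor lists. Of 2 plasma cell markers, Xbp1 was called higher and Jchain lower, and the 1 stromal and endothelial marker compared, Pecam1, was not called (−0.64). The NK, plasma cell and stromal lists are too short to set against the shares over all genes compared. The 10 granulocyte markers were not analysed here. How far these transcripts came from other cells in the sorts was not tested.

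**Figure D4:**
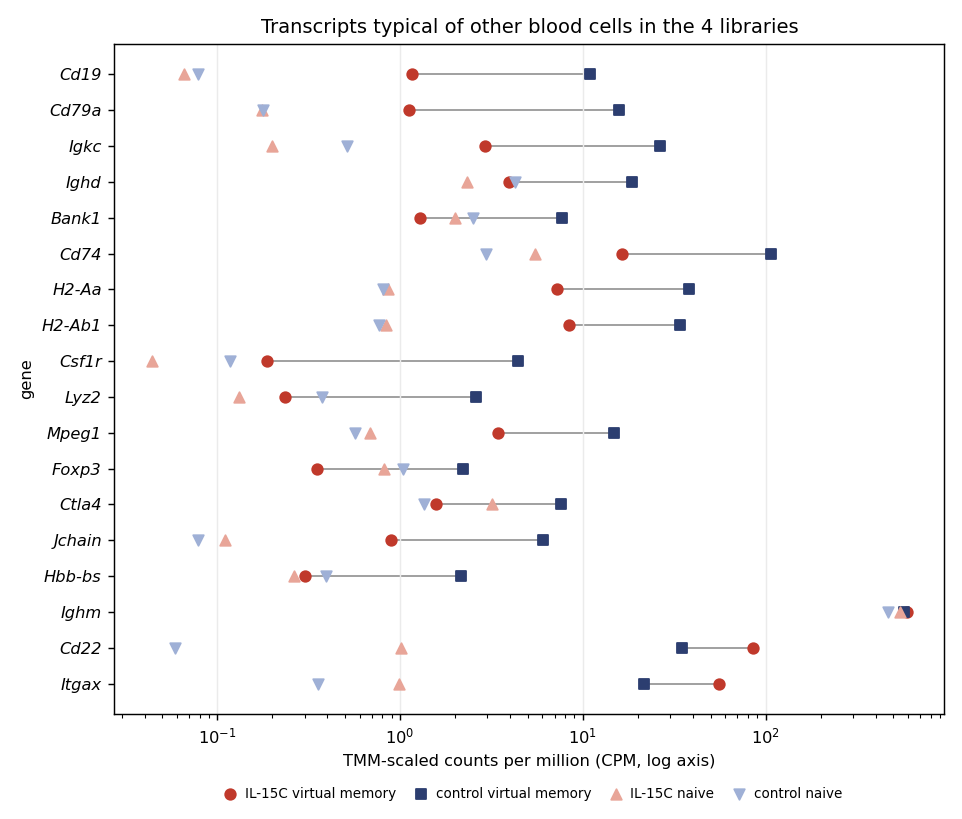
CPM on a log scale of markers of other blood cells in the 4 libraries. Most B cell, class II and macrophage markers are lower in IL-15C VM than in control VM cells, for example Cd74 with 16.4 against 106.2 CPM. Between the same VM libraries Ighm is alike and Cd22 is higher after IL-15C.

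Of the 15 largest ratios at 10 CPM or more, 4 were those of genes on the mitosis list (Ccnb2, Birc5, Plk1 and Ccnb1). After Gzmb came Rsc1a1 (5.33), whose exons overlap Ddi2 on the same strand so that its reads are uncertain, and then Neurl1b, a ubiquitin ligase of the Notch pathway, at 33.7 CPM in IL-15C VM cells, against 0.893 CPM in control VM cells (5.17). The next 12 were Kif2c, Ccnb2, Melk, Mxd3, Pimreg, Birc5, Troap, Nek2, Prr11, Plk1, Ccnb1 and Kif18b, with ratios of 4.65 to 4.37. Exons of several named genes overlap a gene on the other strand, among them Mxd3 (Prelid1), Il12rb2 (Serbp1), Itga4 (Cerkl), Junb (Prdx2), Bak1 (Ggnbp1), Psmb9 (Tap1), Cish, Ccnd2, Bhlhe40, Tox and Slfn5, and their counts may hold reads of that gene. At the other end Ccr9 was followed by Trat1, a T cell receptor adaptor, at 1.004 CPM in IL-15C VM cells, against 18.1 CPM in control VM cells (−4.11). Scd1, a fatty acid desaturase, was at 1.03 CPM in IL-15C VM cells, against 14.7 CPM in control VM cells (−3.78). Rarg, a retinoic acid receptor, was at 1.96 CPM in IL-15C VM cells, against 24.998 CPM in control VM cells (−3.64). The remaining lowest ratios were those of Mtss1, Cd79a, Itgae, Peg13, Slfn5, Cers6, Zbtb20, Zbtb10, Prrt1, Wls and Afap1, down to −3.21.

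In CPM, the 10 largest differences upward were those of Actb, Tubb5, Actg1, Ptma, Tuba1b, Hspa8, Hsp90ab1, Mki67, Top2a and Vim. Actb, a cytoplasmic actin, was at 8307 CPM in IL-15C VM cells, against 4751 CPM in control VM cells (0.81) and was not called, nor were the chaperones Hspa8 (0.69) and Hsp90ab1 (0.77). Tubb5, a beta tubulin, was at 4484 CPM in IL-15C VM cells, against 1091 CPM in control VM cells (2.04). Top2a, a topoisomerase of dividing cells, was at 1499 CPM in IL-15C VM cells, against 106 CPM in control VM cells (3.83). Actin and tubulin genes have many processed copies in the genome, so their counts may hold reads of other loci. The 10 largest differences downward were those of Tpt1, Eef1a1, Macf1, Ddx5, Malat1, Ahnak, Smg1, Kmt2d, Txnip and Zfp36l2. Tpt1, at 3129 CPM in IL-15C VM cells, against 5768 CPM in control VM cells (−0.88), was not called, but its length-adjusted ratio of −1.30 was. Macf1, a cytoskeletal linker, was at 716 CPM in IL-15C VM cells, against 2038 CPM in control VM cells (−1.51). Malat1, a nuclear long noncoding RNA, was at 157 CPM in IL-15C VM cells, against 912 CPM in control VM cells (−2.54). Macf1 has a long transcript and its length-adjusted ratio was −0.83, which was not called, whereas that of Malat1 was −2.09. Smg1 and Kmt2d likewise lost their calls, at adjusted ratios of −0.57 and −0.86.

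**Figure D5:**
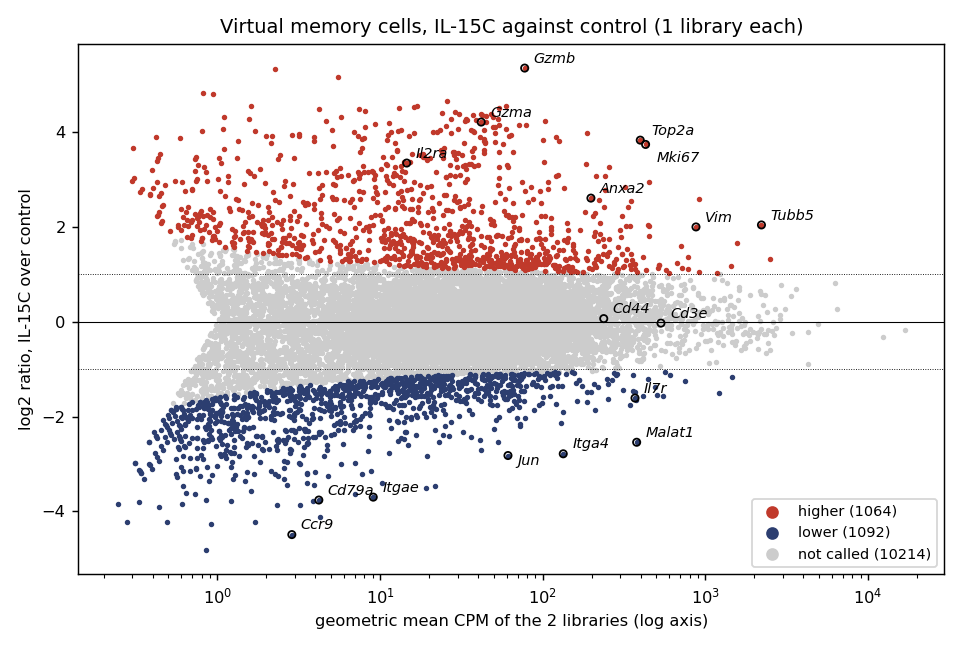
Log2 ratio of IL-15C over control VM cells (y axis) against the geometric mean CPM of each gene in both VM libraries (x axis, log scale). The 12370 genes compared are shown, with called genes coloured. The 1064 genes called higher and 1092 called lower spread over the range of levels, with Gzmb at 5.35 and Ccr9 at −4.49.

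Naive cells of the same mouse groups gave a smaller count of calls: of 12174 genes compared, 603 (4.95%) were higher after IL-15C and 242 (1.99%) lower, 845 (6.94%) in all. Among 11927 genes compared in both, 495 were called higher in both subsets, or 51.3% of the 965 higher in VM cells and 83.9% of the 590 higher in naive cells. Called lower in both were 119 genes, 11.7% of the 1018 lower in VM cells and 54.1% of the 220 lower in naive cells. All 30 mitosis genes were also called higher in naive cells and the log2 ratios centred on a median of 5.68. With 1 library a group, no difference between the responses of the subsets could be tested, and the values stand side by side.

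In the authors' deposited table, which gives no name for its test, 1375 of the genes compared here were at least 2-fold higher and 1642 at least 2-fold lower at an adjusted p under 0.05. All 1064 higher and all 1092 lower genes called here had the same direction and passed there too. Both sets of calls rest on the same counts of the same 2 libraries, so this overlap is no independent check. The signed folds in the authors' deposited table were 40.8 for Gzmb, 18.6 for Gzma, 10.2 for Il2ra, −3.05 for Il7r and −7.08 for Jun, where a fall is written as the negative reciprocal of its ratio. Those p-values come from 1 library a side and carry no replicate spread.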

How the data were processed

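Poly(A) RNA of sorted spleen CD8 T cells was sequenced in 4 libraries, 1 a group. The submitters' processing notes list HISAT2 2.1.0, StringTie 2.1.3b, SAMtools 1.9, Trimmomatic 0.38, FastQC 0.11.7, R 4.2.2, edgeR and the build mm10, and give no role or order. The use of strand in counting is not given in the sources that were read. One table of 15466 genes was used. The authors deposited read counts as unscaled whole numbers, and the smallest is 1, so genes at 0 in any library were not analysed here. The authors also deposited FPKM and TPM, named in the file headers. The TPM of the listed genes summed to less than the whole, by 0.0397% to 0.166%. The deposited log2 columns hold log2 of TMM-scaled CPM plus 1. The authors also deposited a signed fold score and an adjusted p-value for each gene, with no test named. Another 10 columns with values by sample were left aside. Columns named ctrl stand for the control groups that the labels call wild type.

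TMM scaling (edgeR 4.0.16, R 4.3.3) gave factors of 0.946 for IL-15C VM, 1.02 for control VM, 0.996 for IL-15C naive and 1.04 for control naive cells. A prior count of 2 went into each log2 ratio. The 95% intervals are exact conditional (Clopper-Pearson) ones of the counts. They hold counting error alone, because PCR copies of a molecule cannot be recognised here. The median interval was 0.249 log2 units wide. Genes needed 20 reads in the pair and 1 CPM in the higher library. Transcript length came from counts over FPKM. Genes were divided by length into 20 groups, and the length adjustment subtracted the median ratio of the gene's group. Promoters came from RefSeq GRCm38.p6, exon overlaps from GENCODE. Calling was tested on simulated counts that held counting error alone, so that test does not cover spread between mice or libraries. The genes named were the 15 highest and 15 lowest ratios among called genes at 10 CPM or more, the 10 largest gains and 10 largest losses in CPM (without pseudogenes, predicted genes, receptor segments and genes of histones, mitochondria or ribosomal proteins), the 5 given markers, and the leading, most abundant and defining members of 39 lists (738 genes, 639 in the table). These members and lists were chosen with earlier results of these data known. Alternatives were other scalings (total counts, upper quartile, DESeq2 1.42.0 size factors, deposited TPM), other filters, thresholds and prior counts, and a second source of length.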

Additional observations from a re-analysis of the deposited data

Results flagged for a closer look

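Lag3, an inhibitory receptor, differed in direction between the subsets. Its log2 ratio of IL-15C over control was −2.14 in VM cells, with 1.73 CPM in IL-15C VM cells against 7.77 CPM in control VM cells. It was 1.66 in naive cells, with 1.52 CPM in IL-15C naive cells against 0.452 CPM in control naive cells. It was called in opposite directions in the subsets. Among the 11927 genes compared in both, Lag3 was the 1 gene called lower in VM and higher in naive cells. The 1 gene called the other way round was Med12l, which is on none of the gene lists and is named because of these values. Med12l was at 9.52 CPM in IL-15C VM cells against 3.12 CPM in control VM cells, a log2 ratio of 1.59, and at 0.308 CPM in IL-15C naive cells against 1.55 CPM in control naive cells, a log2 ratio of −2.19. The level of Lag3 was low in all 4 libraries. With 1 library a group the difference between the subsets was not tested.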

How the results depend on the processing

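No paired analysis was possible because each group holds 1 library, and no replicate could be left out for the same reason. The counts of 1064 higher and 1092 lower genes became 379 and 171 at 4-fold with the interval beyond 4-fold, and 1135 and 1930 by the deposited TPM, where the ratio alone decided. Genes called higher made up 49.4% of the calls with TMM and 37.0% with TPM. The median log2 ratio of all genes was −0.04 with TMM, −0.15 with total counts and −0.18 with TPM, so list medians within about 0.2 of 0, such as those of the IL-2 receptor, T cell receptor signalling, transcription factor, integrin, ribosome biogenesis and amino acid uptake lists, have no fixed sign. Under total counts, upper-quartile factors, DESeq2 size factors, no filter, a filter of 5 CPM, the 2-fold ratio alone, the length adjustment and removal of other-cell markers, the counts stayed within 1.5 times. The log2 ratio of the summed other-cell markers was −0.0884 with TMM, −0.199 with total counts, −0.0441 with DESeq2 size factors, −0.148 with upper-quartile factors, −0.480 by TPM and −0.314 without the markers that a functional list holds. The median of the longest of 10 length bins minus that of the shortest was −0.861, and −0.554 with no filter on low counts. The cause of these shifts was not tested. At this depth the interval of a gene at 1 CPM is wide, and the spread between mice is unknown throughout.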

Other observations

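Noncoding genes did not follow the protein-coding ones. Of 10648 protein-coding genes compared 894 were called higher and 892 lower in IL-15C VM cells. The shares among all 12370 genes compared were 8.6% higher and 8.83% lower. Of 635 long noncoding RNA genes 26 were called higher and 140 lower, around a median of −0.73, the same after the length adjustment. Neat1, the scaffold RNA of nuclear paraspeckles, was at 34.003 CPM in IL-15C VM cells and 156.5 CPM in control VM cells, a log2 ratio of −2.20. Of 44 small nucleolar RNA genes 25 were called lower and none higher (median −1.69). Most of these RNAs lie in introns of host genes and carry no poly(A) tail, so their counts in poly(A) libraries are uncertain. Of 759 pseudogenes 133 were called higher and 9 lower (median 0.62, or 0.35 after the length adjustment), and their reads may belong to the parent genes. Of 102 variable segments none was called by this rule with 1 library a side (median −0.05).

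The 4 Y-linked genes on the list had ratios below 0, with 2 called lower, of which Uty (−0.92) lost its call after the length adjustment. Among all genes compared 8.83% were called lower, a share that a list of 4 genes is too short to be set against. The median length of the 4 was 6024 bases, and 12.6% of genes were called lower in the length bin of median 6389 bases. Ddx3y was at 34.6 CPM in IL-15C VM cells and 122.3 CPM in control VM cells, a log2 ratio of −1.82. Uty had a log2 ratio of −1.27, and the median of the 4 was −1.07.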
